A study of Mus musculus with 5 samples.

Results

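Binding of Hoxa9 and C/EBPα and the histone marks H3K4me1 and H3K27me3 were examined at 5 genes that encode cytokine and growth factor receptors of blood cells: Kit, Flt3, Csf1r, Csf3r and Csf2rb. The members were all called peaks and regions that touched the mm9 span of one of these genes after 50 kb had been added to either side. They numbered 168 of the 166982 entries in 4 lists, made up of 7 of 6578 Hoxa9 peaks, 31 of 26446 C/EBPα peaks, 120 of 100189 H3K4me1 regions and 10 of 33769 H3K27me3 regions. The extended spans added up to 727.505 kb, of which the genes themselves took 227.505 kb.

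All libraries came from lineage-depleted bone marrow of C57B6 mice that had been infected with the retroviruses MIGR1-HA-Hoxa9 and MIGR1-Flag-Meis1 and was kept in IL3. Every library therefore carried both introduced genes, and no untransformed cells were compared. Hoxa9 was precipitated through the HA tag, so the peaks are those of the introduced protein, while C/EBPα and each mark were precipitated with antibodies against themselves. Each precipitation was 1 library without a replicate, so the values below have no replicate error and no difference between loci was tested.

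These receptors give blood progenitors their response to growth factors. Kit and Flt3 are receptor tyrosine kinases of early progenitors and bind stem cell factor and Flt3 ligand. Csf1r, a receptor tyrosine kinase of the same family, binds M-CSF and marks the monocyte and macrophage line. Csf3r is the G-CSF receptor of the neutrophil line, and Csf2rb encodes the common beta chain through which IL3, GM-CSF and IL5 signal. Hoxa9 is a homeodomain factor that keeps progenitors immature, and C/EBPα, a basic leucine zipper protein, drives myeloid differentiation. H3K4me1 marks enhancers and the flanks of promoters, and H3K27me3 is laid down by Polycomb complexes at silenced genes.

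The gene spans were given as rounded positions, and distances below run to those edges and not to a mapped start site. Kit lay at chr5:75971000-76053000, Flt3 at chr5:148142000-148213000, Csf1r at chr18:61265000-61291500, Csf3r at chr4:125701000-125722000 and Csf2rb at chr15:78155000-78182000 (mm9). Flt3 is read toward lower coordinates and the other 4 toward higher ones. The strands of Kit, Flt3 and Csf3r were taken from RefSeq and those of Csf1r and Csf2rb are background knowledge. Without a gene annotation of mm9, exons and introns could not be told apart, and a peak is placed as upstream of a gene span, inside it or downstream of it. By the order of genes in RefSeq (GRCm38.p6), the added 50 kb also reach Cdx2, Urad and Pan3 beside Flt3, Pdgfrb and Hmgxb3 beside Csf1r, Mrps15 and Oscp1 beside Csf3r, and Csf2rb2, Tex33 and Tst beside Csf2rb. No protein-coding neighbour lies that close to Kit. A peak outside a gene span may thus belong to a neighbour, which was not tested.

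**Figure D1:**
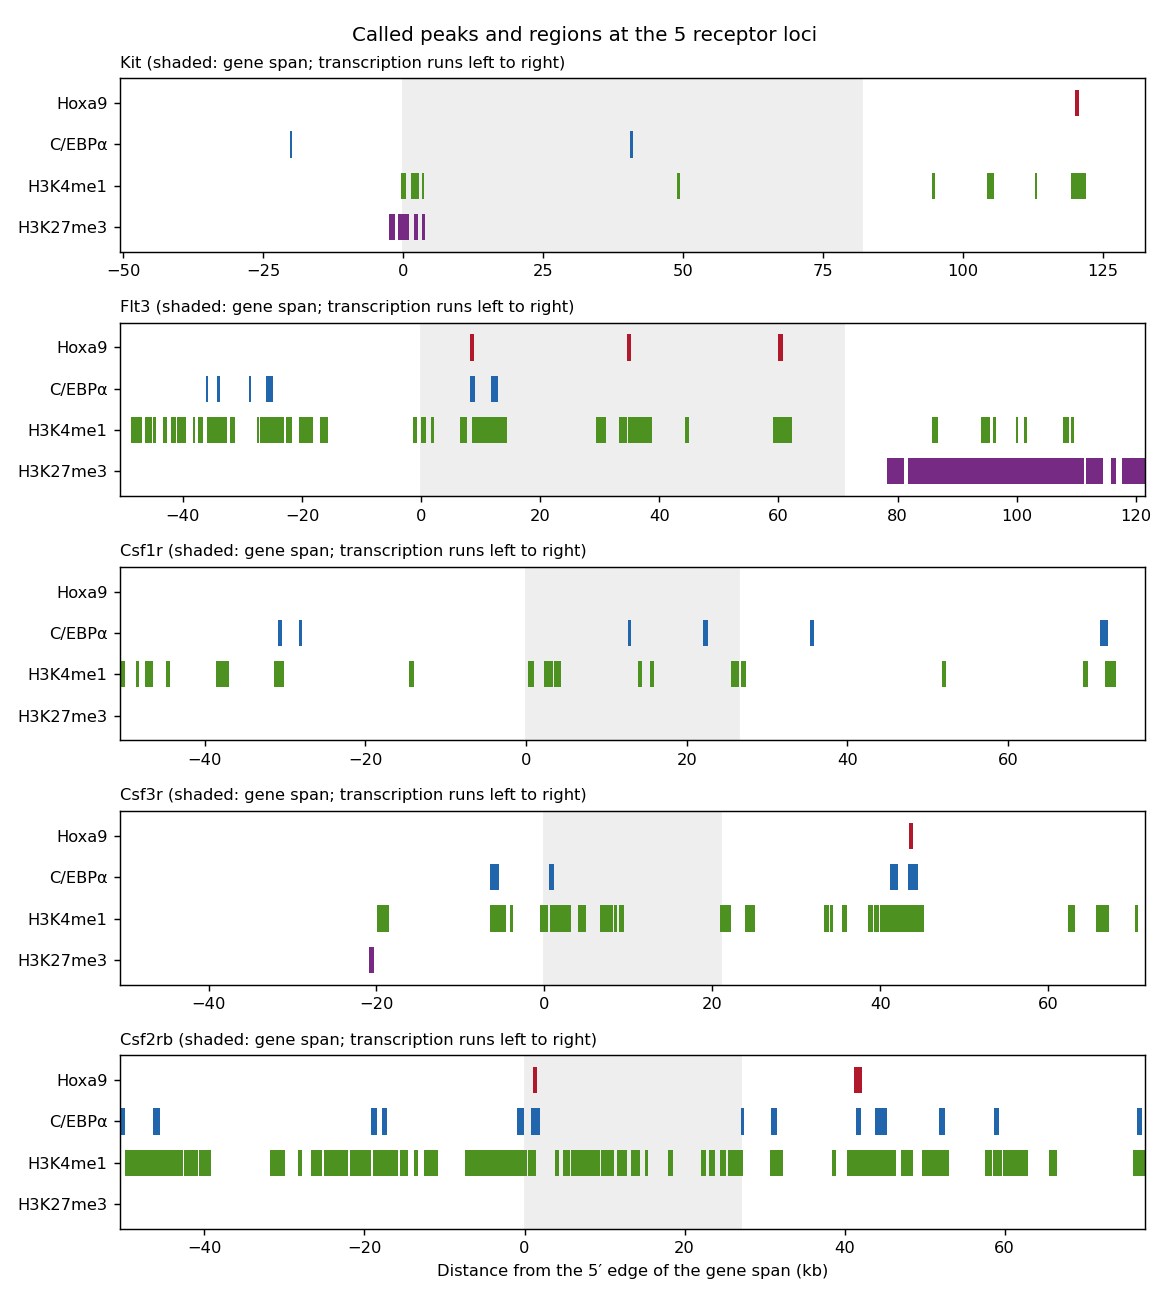
Called peaks and regions of the 4 lists (rows) at each locus (panels), drawn to scale against distance in kb from the 5′ edge of the gene span, which is shaded, with transcription from left to right. Csf2rb carried 13 C/EBPα peaks and 37 H3K4me1 regions, Csf1r had no Hoxa9 peak, and H3K27me3 lay around the 5′ edge of Kit and downstream of Flt3.

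The 5 loci differed widely in factor binding. Csf2rb held 13 C/EBPα peaks, Flt3 and Csf1r 6 each, Csf3r 4 and Kit 2. Per 100 kb this was 10.2 at Csf2rb, 4.74 at Csf1r, 3.51 at Flt3, 3.31 at Csf3r and 1.10 at Kit, against 1.03 over the span of the lists. Csf2rb thus stood well above the other 4 genes, and Kit was close to the overall density. The lead of Csf2rb came from the flanks, since its gene span alone held 1 C/EBPα peak and those of Flt3 and Csf1r 2 each. Hoxa9 peaks numbered 3 at Flt3, 2 at Csf2rb, 1 each at Kit and Csf3r and 0 at Csf1r, or 0.962 per 100 kb over all 5 loci against 0.256 over the lists. To show how common such counts are, the span of the lists was laid out end to end in windows as wide as each locus. At least 13 C/EBPα peaks were held by 0.109% of the 20257 windows as wide as the Csf2rb locus, and at least 3 Hoxa9 peaks by 4.34% of the 15043 windows as wide as the Flt3 locus. At least 1 Hoxa9 peak was held by 20.1% of windows as wide as the Csf3r locus, and 79.2% of those as wide as the Csf1r locus held none. The windows include DNA with few genes, so these shares describe the genome as a whole and not other expressed genes.

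Hoxa9 and C/EBPα met at 4 of the 7 Hoxa9 peaks, a share of 57.1% (95% exact interval 18.4 to 90.1), against 56.9% of all Hoxa9 peaks. Hoxa9 peaks of the receptor loci were thus shared about as often as any. The interval is wide because only 7 peaks were counted. All 4 shared pairs had summits within 200 bp of each other, a spacing found at 46.4% of all Hoxa9 summits. Conversely, 4 of 31 C/EBPα peaks touched a Hoxa9 peak, 12.9% (3.63 to 29.8) against 14.2% of the whole list. All 7 Hoxa9 peaks touched an H3K4me1 region (59.0 to 100%), against 82.4% of all Hoxa9 peaks, and 6 of the 7 summits lay inside one. Of the 31 C/EBPα peaks, 23 touched H3K4me1, or 74.2% (55.4 to 88.1) against 73.6%. None of the Hoxa9 or C/EBPα peaks touched H3K27me3, against 1.49% and 2.09% of the whole lists. Those shares come to less than 1 peak among 7 or 31, so no difference was detectable. Intervals cover counting error only.

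**Figure D2:**
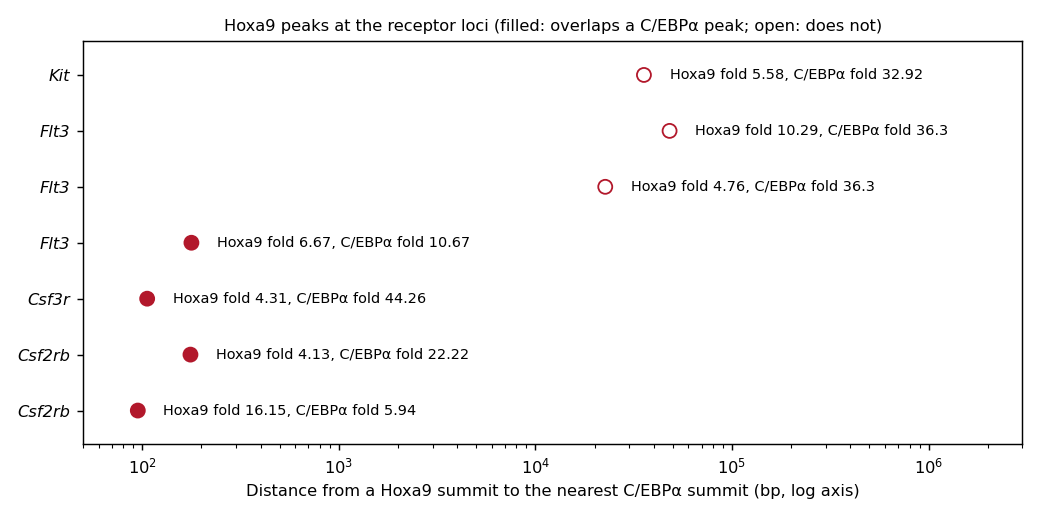
Distance in bp (log axis) from each of the 7 Hoxa9 summits to the nearest C/EBPα summit, by gene, with the fold enrichment of both peaks written beside each point. Filled points overlap a C/EBPα peak and lie between 95 and 178 bp, and open points do not overlap one and lie 22.7 kb or more away.

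The 4 shared pairs were unequal in strength. The value used is the fold enrichment, the authors' caller's linear ratio of the signal of tags (mapped reads) to its estimated background. Its median was 6.06 over all Hoxa9 peaks and 7.74 over all C/EBPα peaks. At Csf3r a Hoxa9 peak of 4.31-fold (19 tags) met a C/EBPα peak of 44.26-fold (211 tags). At the 5′ end of Csf2rb a Hoxa9 peak of 4.13-fold (23 tags) met a C/EBPα peak of 22.22-fold (145 tags). The reverse was seen downstream of Csf2rb, where a Hoxa9 peak of 16.15-fold (110 tags) met a C/EBPα peak of 5.94-fold (22 tags). In Flt3 the pair was 6.67-fold for Hoxa9 (34 tags) and 10.67-fold for C/EBPα (94 tags). In 3 of the 4 pairs, then, 1 partner lay below the median of its own list and the other above it. Tags of 2 libraries are not on 1 scale, so the folds rank each peak within its own list only. For 19 tags the 95% Poisson interval ran from 11.4 to 29.7, and for 110 tags from 90.4 to 133.

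Within the 50 kb limit, the strongest C/EBPα peak at every locus was free of called Hoxa9. Over the whole list 14.2% of C/EBPα peaks touched Hoxa9, so most were free of it. The fold enrichment of the strongest peak was 65.3 at Csf3r, 55.19 at Csf2rb, 36.3 at Flt3, 34.72 at Csf1r and 8.69 at Kit. The nearest Hoxa9 summit was 49.6 kb away at Csf3r, 3.04 kb at Csf2rb, 3.80 kb at Flt3, 129 kb at Csf1r and 79.5 kb at Kit. At Kit this depends on the limit, since a C/EBPα peak of 32.92-fold that overlapped Hoxa9 lay 73.3 kb from the gene. Of the 5 C/EBPα peaks at these loci with a fold enrichment of at least 30, only the 44.26-fold peak downstream of Csf3r touched Hoxa9, or 1 of 5, against 34.9% of the 1175 C/EBPα peaks that strong in the whole list. The limit of 30 was set after the values were seen. Both counts rest on 5 peaks, and neither was tested against the list.

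**Figure D3:**
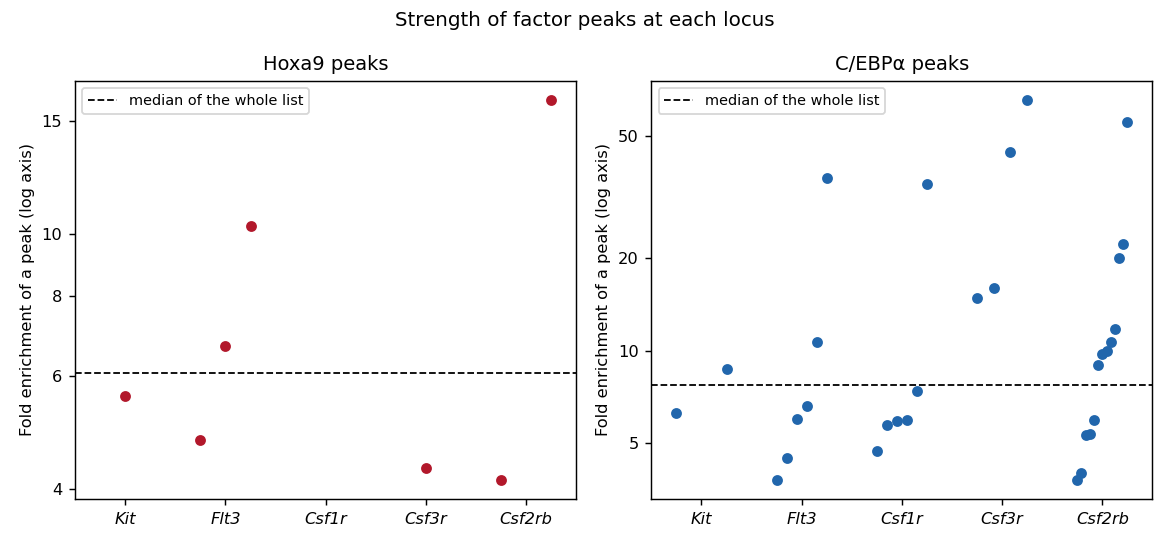
Fold enrichment (log axis) of every Hoxa9 peak (left) and every C/EBPα peak (right) at each gene, 1 point per peak, with the median of the whole list as a dashed line. All 4 C/EBPα peaks at Csf3r lie above the median of 7.74, whereas 5 of the 6 at Csf1r lie below it.

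Csf3r carried 4 C/EBPα peaks, or 3.31 per 100 kb against 1.03 over the span of the lists, and all of them were strong. The strongest, at chr4:125694564-125695625, had its summit 5.91 kb upstream of the gene span and held 232 tags. Its fold enrichment of 65.3 ranked 43 of 26446, within the top 0.163% of the list. Its p score, the caller's −log10 of the p-value times 10, was 3230, the highest in the list, but 231 peaks share the score 3100, so the order at that end is uncertain. A second C/EBPα peak, of 14.81-fold and 61 tags, had its summit 889 bp inside the 5′ edge. The other 2 lay 20.7 and 22.8 kb past the 3′ edge, with 15.93-fold and 44.26-fold, inside a single H3K4me1 region of 5194 bp. That region also held the only Hoxa9 summit of the locus, 106 bp from the stronger C/EBPα summit. All 4 C/EBPα summits lay inside H3K4me1, and the region under the strongest had a fold enrichment of 8.77. Hoxa9 at Csf3r was thus confined, among called peaks, to 1 weak site beyond the gene. H3K4me1 covered 19.4% of the extended span and 29.9% of the gene, against 4.64% of the span of the lists. The only H3K27me3 region, 635 bp wide at 5.08-fold, ended 20.3 kb before the gene.

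The bases just before the start site of Csf3r are shown because a C/EBPα peak lay at the 5′ end of the gene. They are the 250 bases upstream of the RefSeq start site at chr4:126024409-126024658 (GRCm38.p6, plus strand). A match to GCAAT, which is only part of a C/EBP site, is in capitals, 9 bases before the start site.
Csf3r: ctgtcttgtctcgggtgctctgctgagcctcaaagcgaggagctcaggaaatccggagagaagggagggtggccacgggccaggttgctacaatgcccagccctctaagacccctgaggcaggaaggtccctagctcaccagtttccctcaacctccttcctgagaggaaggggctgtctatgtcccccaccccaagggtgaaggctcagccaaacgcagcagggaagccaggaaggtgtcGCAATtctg

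Both strands of such windows were searched for 4 motifs, the C/EBP site TTNNGCAA, the shorter C/EBP motif GCAAT, a HOXA9 site TGATTNAT and the MEIS site TGACAG. A TTNNGCAA site that is followed by T also contains GCAAT. Csf3r held 1 match, to GCAAT, which 23.1% of the 32851 promoter windows in the table also hold. The full site TTNNGCAA was found in 9.56% of them, TGATTNAT in 2.82% and TGACAG in 15.9%, and none of these in Csf3r, Kit or Flt3. The RefSeq start site lies inside the outermost span of Csf3r, and the builds were not aligned, so whether these bases lie under the mm9 peak was not tested. Csf1r and Csf2rb had no entry in the table.

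Csf2rb, the locus with most C/EBPα peaks, had C/EBPα on both sides of the gene and few peaks within it. Of its 13 peaks, 5 lay upstream, 1 inside and 7 downstream. They ranged from 3.8-fold to 55.19-fold with a median of 9.72, and 8 of the 13 exceeded the median of the list. The strongest, at chr15:78198848-78200321, held 371 tags, ranked 132 of 26446 by fold enrichment and had its summit 17.6 kb past the 3′ edge. A pair of C/EBPα peaks flanked the 5′ edge, with summits 537 bp before it (8.97-fold) and 1390 bp after it (22.22-fold). The second of these was shared with Hoxa9 at a summit distance of 176 bp, the Hoxa9 peak lying at chr15:78156018-78156523. This was the only called Hoxa9 peak at the 5′ edge of any of the 5 genes, and a weak one, with 94.3% of the list at or above its fold enrichment. The other Hoxa9 peak, at chr15:78196110-78197167, was strong, within the top 4.29% of its list. It lay 14.6 kb past the 3′ edge, 95 bp from a weak C/EBPα summit and 3.04 kb from the strongest one, in the same H3K4me1 region of 6066 bp. The strong Hoxa9 site and the strong C/EBPα site of this locus were therefore neighbours and not the same site.

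H3K4me1 lay over most of the Csf2rb locus. Its 37 regions covered 68.8 kb, 54.2% of the extended span and 54.9% of the gene, and 0.128% of windows of that width were covered as much. The widest, 7704 bp, crossed the 5′ edge and ranked 476 of 100189 by width. Of the 37 regions, 11 touched a C/EBPα peak and 2 a Hoxa9 peak. Over all H3K4me1 regions 19.9% touched C/EBPα and 6.22% Hoxa9. No H3K27me3 region was called, as in 63.8% of windows of that width. Csf2rb2, a close copy of Csf2rb that encodes an IL3-specific beta chain, lies upstream within the added 50 kb. How reads that match both copies were placed is not given in the sources used here, so peaks inside the copies are uncertain.

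Flt3 held 3 of the 7 Hoxa9 peaks, more than any other of the 5 loci, and all of them inside the gene. With 100 kb added Csf2rb held 4 and Flt3 still 3. The strongest, at chr5:148152252-148153119, was 10.29-fold with 62 tags, within the top 15.6% of the list, and had its summit 60.4 kb from the 5′ edge and 10.6 kb before the 3′ edge. No C/EBPα summit lay within 48.1 kb of it. A weak peak of 4.76-fold and 25 tags lay 34.9 kb into the gene, 22.7 kb from the nearest C/EBPα summit. The remaining peak, 6.67-fold at 8.44 kb, was the shared one, 178 bp from a C/EBPα summit of 10.67-fold. Hoxa9 therefore occurred along Flt3 both with and without called C/EBPα. C/EBPα was strongest 12.2 kb into the gene, at 36.3-fold and 208 tags, and 4 weaker peaks of 3.8-fold to 6.63-fold lay 25.8 to 35.9 kb upstream, on the side of Pan3.

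The H3K4me1 regions of Flt3 numbered 35 and covered 27.4% of the extended span. The widest, 5943 bp at 8.67-fold, held both C/EBPα summits of the gene and touched the shared Hoxa9 peak, whose summit lay 85 bp beyond its end. The region with the highest fold enrichment, 9.85, lay under the strongest Hoxa9 peak. At the 5′ edge itself H3K4me1 was weak, at 2.50-fold, with 99.0% of the list at or above it. The strongest Hoxa9 and the strongest C/EBPα peak of Flt3 thus lay in well-marked regions inside the gene and not at the edge. The weak Hoxa9 peak at 34.9 kb touched a region of 4.52-fold, near the list median of 4.84. That region was wide, at 3453 bp and 229 tags.

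Beyond the 3′ end of Flt3 the chromatin carried H3K27me3. The 5 regions there covered 39.4 kb, 23.0% of the extended span, and 1.84% of windows of that width were covered as much. The widest, at chr5:148101733-148131218, spanned 29486 bp at 37.24-fold, ranks 47 by width and 78 by fold enrichment of 33769. A second, of 23360 bp at 32.16-fold, ran past the end of the extended span. The nearest region to Flt3 ended 7.30 kb from the 3′ edge, and the gene itself held none. That side holds Urad and Cdx2, a homeobox gene of the intestine. All 7 H3K4me1 regions downstream of Flt3 touched H3K27me3, and none of its other regions did. Over all 5 loci 10 of 120 H3K4me1 regions touched H3K27me3, or 8.33% against 6.85% of the whole list.

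Kit differed from the other genes in having H3K27me3 at its 5′ edge. A region of 1994 bp at 7.79-fold (154 tags), at chr5:75970115-75972108, spanned the edge, and 3 smaller ones of 5.01-fold to 6.09-fold lay from 1.83 kb before it to 3.79 kb after it, by their summits. H3K4me1 lay in the same place. A region of 893 bp at 5.94-fold (40 tags) spanned the edge, and a wider one of 1517 bp followed 2.44 kb into the gene. Of the 4 H3K27me3 regions, 3 touched H3K4me1, against 14.6% of all H3K27me3 regions, and 3 of the 8 H3K4me1 regions touched H3K27me3. Of those 3 H3K27me3 regions, the smaller ones had p scores of 78.26 and 56.3 and false discovery rates of 1.01% and 1.28%. At a p score of at least 100 or a false discovery rate of at most 1%, only the region over the edge still touched H3K4me1, and at a fold enrichment of at least 10 Kit had no H3K27me3. Both marks were thus called over the 5′ edge of Kit, though from separate libraries, so whether the same alleles or cells carried both cannot be told apart. The H3K27me3 there was modest beside Flt3, and covered 2.36% of the extended span against 2.51% of the span of the lists.

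The 250 bases before the first of 2 RefSeq start sites of Kit, which are 4 bases apart, at chr5:75574737-75574986 (GRCm38.p6, plus strand), are shown because both marks lay over the 5′ edge, with each CpG in capitals.
Kit: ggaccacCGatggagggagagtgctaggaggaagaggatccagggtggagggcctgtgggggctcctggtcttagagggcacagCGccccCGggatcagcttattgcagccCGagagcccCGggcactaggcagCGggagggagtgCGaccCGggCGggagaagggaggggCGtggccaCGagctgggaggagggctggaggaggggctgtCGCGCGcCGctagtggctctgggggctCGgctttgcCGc

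This window held 17 CpGs and 70.8% G and C. The median over the table was 6 CpGs and 52.4%, and 23.5% of promoters had at least 17 CpGs. The same window held 13 CpGs in Flt3 and 6 in Csf3r, neither of which had H3K27me3 at its 5′ edge. With 3 promoters this is a description only. GCAAT matched once in Kit, on the minus strand 148 bases before the start site, and in Flt3 it did not match.

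Among the 5 loci, C/EBPα peaks were sparsest at Kit, at 1.10 per 100 kb, close to the 1.03 over the span of the lists. Hoxa9 stood at 0.549 per 100 kb, from 1 peak, against 0.256 over that span. At least 1 Hoxa9 peak was held by 26.9% of windows as wide as the Kit locus. The factor summit nearest to the 5′ edge was that of a C/EBPα peak of 6.27-fold and 15 tags, 20.1 kb upstream. Another C/EBPα peak, of 8.69-fold and 31 tags, lay 40.9 kb into the gene. Neither C/EBPα peak touched H3K4me1. The single Hoxa9 peak, at chr5:76091023-76091693, was 5.58-fold with 30 tags and lay 38.4 kb past the 3′ edge. It sat in the widest H3K4me1 region of the locus, 2518 bp at 7.36-fold, with no C/EBPα summit within 35.6 kb. H3K4me1 covered 4.44% of the Kit locus, close to the 4.64% of the span of the lists and the lowest share of the 5 genes.

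Csf1r had no called Hoxa9 and no H3K27me3 within 50 kb. Its C/EBPα peaks were weak within and near the gene: 5 of the 6 lay between 4.71-fold and 7.41-fold with 15 to 24 tags each. Both peaks inside the gene, at 12.9 and 22.4 kb from the 5′ edge, lay outside H3K4me1, by 985 bp and 3.10 kb. The strong peak, at chr18:61336417-61337390, was 34.72-fold with 151 tags, within the top 2.81% of the list, and lay 45.4 kb past the 3′ edge, on the side of Hmgxb3. It touched an H3K4me1 region of 3.67-fold, but its summit lay 128 bp outside. In all, 2 of the 6 C/EBPα peaks touched H3K4me1, against 12 of 13 at Csf2rb, 4 of 4 at Csf3r, 5 of 6 at Flt3 and 0 of 2 at Kit. Over the whole C/EBPα list 73.6% did, and no test was made between genes. H3K4me1 was present at the 5′ end of Csf1r, with a region of 778 bp at 6.67-fold whose summit lay 642 bp inside the edge, and it covered 18.1% of the gene and 10.5% of the extended span. The region with the highest fold enrichment, 8.33, lay 50.9 kb upstream, toward Pdgfrb.

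**Figure D4:**
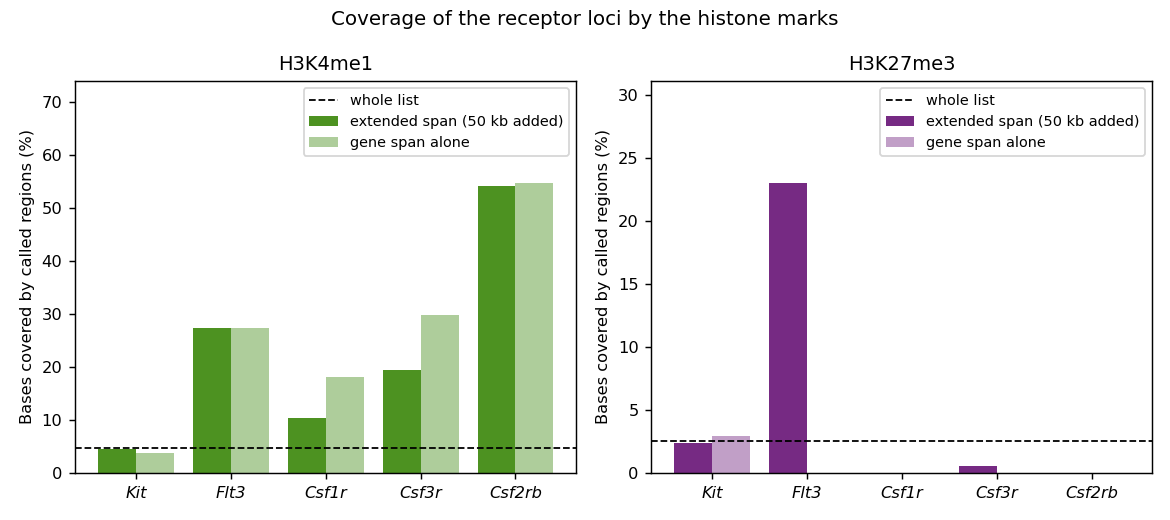
Share of bases covered by called H3K4me1 (left) and H3K27me3 (right) regions at each gene, in the extended span (dark bars) and in the gene span alone (pale bars), with the share of the span of the lists as a dashed line. H3K4me1 ranged from 4.44% at Kit to 54.2% at Csf2rb in the extended spans, and H3K27me3 reached 23.0% at Flt3, all of it outside the gene.

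The marks followed different orders across the genes. By H3K4me1 cover of the extended span the order was Csf2rb (54.2%), Flt3 (27.4%), Csf3r (19.4%), Csf1r (10.5%) and Kit (4.44%). By H3K27me3 it was Flt3 (23.0%), Kit (2.36%) and Csf3r (0.525%), with 0 at Csf1r and Csf2rb. These orders depend on the extension. Csf3r exceeded Flt3 for H3K4me1 in the gene spans alone (29.9 against 27.4%) and with 25 kb added (29.3 against 24.4%). With 100 kb added, H3K27me3 covered 6.43% at Csf1r, above Kit (1.67%), and 0.358% at Csf2rb. At 50 kb, Csf2rb was highest for H3K4me1 and for C/EBPα and had no H3K27me3, while Kit was lowest for H3K4me1 and for C/EBPα and carried H3K27me3 at its edge. H3K27me3 at Flt3 lay apart from the gene, whose span alone held none. Over all 5 loci H3K4me1 covered 22.1% and H3K27me3 6.09%, of which Flt3 supplied 39.4 of 44.3 kb. With 1 library per list these orders have no error from replicates.

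No expression was measured in these libraries, so neither the level of any receptor nor which gene a peak acts on is known from them.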

How the data were processed

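ChIP-seq peak lists of 4 precipitated libraries were analysed, and input was left aside. The submitters' processing notes name CASAVA 1.8.2, BWA 0.6.2, MACS 1.4 and build mm9. For caller settings and depth, the sources used here say nothing. Per the file headers, the authors' tag count is the whole number of tags in a peak, the deposited p score is −log10 of the p-value times 10, the deposited fold enrichment is a linear ratio, and the deposited false discovery rate is in percent. Each library was called separately, so a weak site can be absent from a list.

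Gene spans were extended by 50 kb, and every touching peak was kept. Overlap needed 1 bp. Shares carry exact Clopper-Pearson intervals at 95%. Python 3.11.15, pandas 2.3.3 and scipy 1.17.1 were used, and the overlap code was tested on simulated data. All Hoxa9 peaks were described. Other peaks and regions were named if strongest, widest or nearest to the 5′ edge of a gene, and a few more were chosen after their values were seen. The members and lists were chosen with earlier results of these data known. Other receptor and ligand genes had been listed, but without mm9 gene positions they were not counted. Promoters of 3 of the 5 genes matched the RefSeq table (GRCm38.p6). Alternatives were other extensions, stricter thresholds and other definitions of sharing.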

Additional observations from a re-analysis of the deposited data

How the results depend on the processing

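Of 36 alternatives to the 5 pooled results, 14 left the count within 1.5 times, or the covered share within its interval over bases, and 22 did not. Of 180 for single genes, 96 and 84 fell so. The interval over bases treats each base as independent and is narrow. With 25 kb added, H3K4me1 cover of 22.6% against 22.1% fell outside it. At that same setting, 21 C/EBPα peaks against 31 counted as within 1.5 times. The tallies thus join unlike rules for counts and shares and do not measure how stable the results are. With the gene spans alone there were 4 Hoxa9 peaks, 7 C/EBPα peaks and 2 shared Hoxa9 peaks, H3K4me1 covered 21.2% and H3K27me3 1.05%. With 25 kb added there were 21 C/EBPα peaks, and the marks covered 22.6% and 4.59%. With 100 kb added there were 12 Hoxa9 peaks, 8 of them shared, and 44 C/EBPα peaks, and the marks covered 21.6% and 7.42%. At a p score of at least 100 there were 3 Hoxa9 peaks, 0 shared, and the marks covered 20.4% and 5.70%. C/EBPα peaks then numbered 21 against 31, with 2 against 6 at Csf1r. At a fold enrichment of at least 10 there were 2 Hoxa9 peaks, 0 shared, and 13 C/EBPα peaks, and the marks covered 1.68% and 4.51%. With a false discovery rate of at most 1%, which removes no factor peak or H3K4me1 region, H3K27me3 covered 5.91%. With summits within 100 bp, 1 Hoxa9 peak was shared.

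Each of the 4 shared pairs held a peak with a p score under 100. The extension decides which peaks belong to a gene, and a peak too weak to be called at this depth is missing from the lists. No paired analysis was possible because each group is 1 library with no replicate number in its labels.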

Other observations

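Some of the closest binding outside the 50 kb limit was shared. Beyond the 3′ end of Kit, a C/EBPα peak of 32.92-fold and 205 tags lay 73.3 kb from the gene and overlapped a Hoxa9 peak of 5.35-fold and 25 tags. The C/EBPα peaks of Kit within the limit reached 8.69-fold, so whether its strongest C/EBPα peak is shared depends on the limit. On the lower-coordinate side of Csf1r, toward Pdgfrb, a Hoxa9 peak of 6.32-fold and 49 tags and a C/EBPα peak of 5.93-fold and 29 tags overlapped 57.0 kb from the gene, so the absence of Hoxa9 at Csf1r depends on the limit. A Hoxa9 peak of 16.37-fold and 111 tags lay 55.5 kb before Csf2rb, about as strong as the 16.15-fold peak downstream of that gene. On the higher-coordinate side of Csf3r a C/EBPα peak of 21.6-fold lay 58.1 kb from the gene, and the nearest Hoxa9 peaks outside the limit were 663 and 2597 kb away.

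In all 4 shared pairs the C/EBPα summit lay on the downstream side of the Hoxa9 summit in the direction of the gene. With 4 pairs, and with no strand of the binding sites themselves, this is given as a value only.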
